A study of Mus musculus with 8 samples.

Results

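The organic ion and ABC transporter genes were examined in the liver of obese diabetic mice treated with a control peptide or with AF1 peptide. Members were taken by gene symbol alone, as every gene of the table in the Slc22a, Slco, Slc47a and Abca to Abcg families, with the bile salt export pump gene left out. This gave 73 of 21532 genes, of which 31 were solute carriers and 42 were ABC genes. A total of 63 members had a mean normalized count of at least 10 over the 8 mice and were tested. The 10 that were not tested were 8 solute carriers (Slc22a2, Slc22a12, Slc22a13, Slc22a14, Slc22a22, Slc47a2, Slco1c1 and Slco6d1) and 2 ABC genes (Abca4 and Abca17), with means between 1.36 and 8.47.

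Liver RNA was collected from male db/db mice on a C57B/6J background, in which loss of the leptin receptor leads to obesity and diabetes. From 8 weeks of age the mice received 5 mg/kg of control peptide (Control, n = 4) or of AF1 peptide (n = 4) by retro-orbital injection, 2 times per week for 5 weeks. AF1 peptide is a synthetic peptide derived from estrogen receptor α joined to a cell-penetrating TAT sequence. Each library came from 1 mouse, there was no lean or untreated group, and the values are normalized counts, that is, read numbers scaled by 1 factor per mouse. The comparison asks how the livers of the AF1 peptide mice differed from those of the Control mice in the RNA of these transporters.

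Hepatocytes take up drugs, hormones, bile acids and metabolites from the blood through solute carriers of the SLC22 and SLCO (OATP) families on the sinusoidal membrane. SLC47 (MATE) carriers and many ABC transporters, which use ATP, then move the same kinds of compounds into bile or back into blood. Other ABC proteins move phospholipids and sterols, carry fatty acids into peroxisomes, serve mitochondria, or, in the ABCE and ABCF subfamilies, work on ribosomes and move no solute.

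Recovered reads ranged from 23031880 to 45117528 per mouse. AF1 peptide replicate 1 stood apart from the other libraries. Its value lay outside the range of the other 7 mice for 49.3% of the 15989 tested genes (25.9% above and 23.4% below) and for 38 of the 63 tested members (60.3%), with 22 above and 16 below. The mitochondrial share of its reads was 20.8%, against 34.3 to 37.8% in AF1 peptide replicates 2 to 4 and 22.4 to 34.3% in the Control mice. Hepatocyte markers were abundant in all 8 mice, and their summed level was 1826700 in AF1 peptide replicate 1, 2149700 to 2604300 in the other AF1 peptide mice and 2489000 to 2644600 in the Control mice. This sum is mostly Alb, at 1224200 in AF1 peptide replicate 1. In that mouse Alb, Ttr and Apoa1 were the lowest of all mice. Serpina1a, Cyp2e1, Tat and Hnf4a were the highest there, and Cyp3a11 lay between. Results are therefore also given without this library. The part that library quality has in them was not tested.

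Across the table, a gene was called when limma gave an unadjusted p under 0.05 with a fold change over 1.3. By this rule 1.79% of tested genes were called higher and 1.9% lower with AF1 peptide (3.69% in either direction). This was 286 genes higher and 304 lower, and with all libraries scaled to equal totals 122 higher and 602 lower, a scaling under which the 4 members called below kept their calls. Among the solute carriers, 4 of 23 were called (17.4%). Slc22a26 and Slco4a1 rose, and Slc22a27 and Slc22a29 fell. Among the ABC genes, 0 of 40 were called by limma, although 3 of them had an unadjusted p under 0.05. On the recovered reads edgeR called 0 ABC genes and DESeq2 called 1, Abcc6. After Benjamini-Hochberg adjustment over all tested genes, no member and no gene of the table passed 0.05 in limma, and the smallest adjusted p was 0.763. edgeR gave 0 genes and DESeq2 3 genes under 0.05 after adjustment, none of them a member. At an unadjusted p under 0.05, limma found 7 members and 990 genes of the table (6.19%). Without AF1 peptide replicate 1, the rule called 3 members, Slc22a26, Slc22a29 and Slco4a1, and 5.93% of the table. Single members were also compared by a two-sided exact permutation test, whose smallest p with 4 mice against 4 is 0.0286. It gave that p to 5 of the 63 tested members (7.94%), those whose groups did not overlap. The groups did not overlap for 3.9% of all 15989 tested genes, and the exact test was not run over all of these.

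Of the 4 called genes, 3 belong to 1 run of neighbouring genes on chromosome 19. Slc22a26, Slc22a27, Slc22a28, Slc22a29 and Slc22a30, rodent organic anion transporter genes that arose by tandem duplication, follow each other in the RefSeq annotation with no other coding gene between them. The promoter windows of the 3 called neighbours, from RefSeq on GRCm38.p6, are printed because these genes lie side by side and differed from Control in different directions. Each window holds 250 bases before and 50 after the start of transcription, and capitals mark a match to TTCNNNGAA, the palindrome bound by STAT factors, searched on both strands.
Slc22a26 (chr19:7802618-7802917, minus strand): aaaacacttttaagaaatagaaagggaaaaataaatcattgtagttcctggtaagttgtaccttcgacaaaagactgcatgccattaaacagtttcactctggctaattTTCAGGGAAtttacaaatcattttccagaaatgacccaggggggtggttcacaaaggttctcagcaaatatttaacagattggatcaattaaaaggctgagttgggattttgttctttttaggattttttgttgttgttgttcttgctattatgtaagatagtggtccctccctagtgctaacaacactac
Slc22a27 (chr19:7965978-7966277, minus strand): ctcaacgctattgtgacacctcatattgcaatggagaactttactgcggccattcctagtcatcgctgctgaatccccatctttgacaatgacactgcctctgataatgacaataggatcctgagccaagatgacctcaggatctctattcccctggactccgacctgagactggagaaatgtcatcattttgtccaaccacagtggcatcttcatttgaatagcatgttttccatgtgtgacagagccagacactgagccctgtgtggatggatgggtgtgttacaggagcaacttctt
Slc22a29 (chr19:8218851-8219150, minus strand): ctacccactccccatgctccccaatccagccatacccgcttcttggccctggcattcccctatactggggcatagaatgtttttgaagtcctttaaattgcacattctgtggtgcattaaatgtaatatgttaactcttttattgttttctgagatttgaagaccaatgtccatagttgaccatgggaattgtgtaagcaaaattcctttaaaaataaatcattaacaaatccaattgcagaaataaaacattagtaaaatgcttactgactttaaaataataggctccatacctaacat
Only the Slc22a26 window of these 3 held the palindrome, which was present in 8.3% of 32851 RefSeq promoters of the same length. It was in 7 of the 69 promoters of members. Letters of a TATA box, an HNF1 site, the AGGTCA repeats DR1 and DR4 and an estrogen response element were also searched. None of these was in the 3 windows. The TATA letters were in 13.6% of all RefSeq promoters of this length. The exact letters of the HNF1 site, DR1, DR4 and the estrogen response element were in 0.00913%, 0.0396%, 0.0152% and 0.0213%. Strings this rare are absent from nearly any window, so this does not show that the windows lack such sites. Whether the palindrome has a part in the level of Slc22a26 was not tested. The windows of the 5 neighbours were 56.3 to 62.0% identical in the pairs that involve Slc22a26 or Slc22a27. Slc22a29 was 75.0% identical to Slc22a28 and 74.7% identical to Slc22a30, and Slc22a28 and Slc22a30 were 96.0% identical to each other. These are identities of alignments with gaps. Unrelated windows were not measured beside them, so the lower values do not by themselves show shared sequence.

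Slc22a26 rose 2.63-fold with AF1 peptide. Its normalized counts were 89.0, 36.4, 61.6 and 72.0 in Control replicates 1 to 4 and 573, 131.5, 92.3 and 102.8 in AF1 peptide replicates 1 to 4. The groups did not overlap, and AF1 peptide replicate 1 was far above all other mice, at 5.26 times the mean of the other AF1 peptide mice. The means were 64.8 ± 22.0 and 225 ± 233 (SD, n = 4 each), with a log2 difference of 1.39 (SE 0.52, 95% interval 0.24 to 2.55, exact permutation p = 0.0286). Without AF1 peptide replicate 1 the log2 difference was 0.79, still called but smaller. Without Control replicate 2, the lowest mouse, it was 1.15 and no longer had an unadjusted limma p under 0.05. The call was also lost when variances were not moderated across genes, and DESeq2 gave no p for the gene. Of the 50-base words of its transcripts, 6.21% are found in transcripts of another gene.

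Slc22a29 fell, with the groups apart. Its normalized counts were 363, 288, 350.2 and 356 in the Control mice and 190.4, 241, 253 and 254 in the AF1 peptide mice. Every AF1 peptide mouse was below every Control mouse. The means were 339 ± 34.9 and 235 ± 30.1 (SD, n = 4 each), and the log2 difference was -0.53 (SE 0.13, 95% interval -0.83 to -0.24, exact permutation p = 0.0286). It had an unadjusted limma p under 0.05 in all 8 fits that leave out 1 mouse, and was -0.44 without AF1 peptide replicate 1.

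Slc22a27 also fell, with overlapping groups. Its normalized counts were 762, 655, 765 and 909.5 in the Control mice and 253, 462, 736.5 and 626 in the AF1 peptide mice. The lowest of the 8 mice was AF1 peptide replicate 1, and AF1 peptide replicate 3 lay within the Control range. The log2 difference was -0.67 (SE 0.28, 95% interval -1.29 to -0.05, exact permutation p = 0.0571), from means of 773 ± 104.5 and 519 ± 210.4 (SD, n = 4 each). The call was the least stable of the 4. Without AF1 peptide replicate 1 the difference was -0.36, under the 1.3-fold limit. Without Control replicate 1, 3 or 4 or AF1 peptide replicate 2 it was -0.67, -0.67, -0.59 and -0.65, with an unadjusted limma p above 0.05 in each, and edgeR did not call it. Slc22a27 and Slc22a29 share sequence with each other, with 29.9% of the 50-base words of Slc22a27 found in other genes and 28.6% of those of Slc22a29, so that reads from these words cannot be assigned to either gene with certainty.

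The other 2 genes of the run were not called. Slc22a28 was between 60.3 and 95.6 normalized counts in the Control mice and between 72.5 and 137 in the AF1 peptide mice, and its log2 difference was 0.30 (95% interval -0.22 to 0.80). Slc22a30 was the most abundant of the 5, at 770 to 1327 in the Control mice and 876.5 to 1426 in the AF1 peptide mice, with a log2 difference of 0.19 (95% interval -0.24 to 0.62). The pair shares more sequence than any other pair of the run, with 53.9% of the 50-base words of Slc22a28 found in other genes, mostly in Slc22a30. The 5 neighbours therefore had 1 member higher, 2 lower and 2 that did not pass the test.

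**Figure D1:**
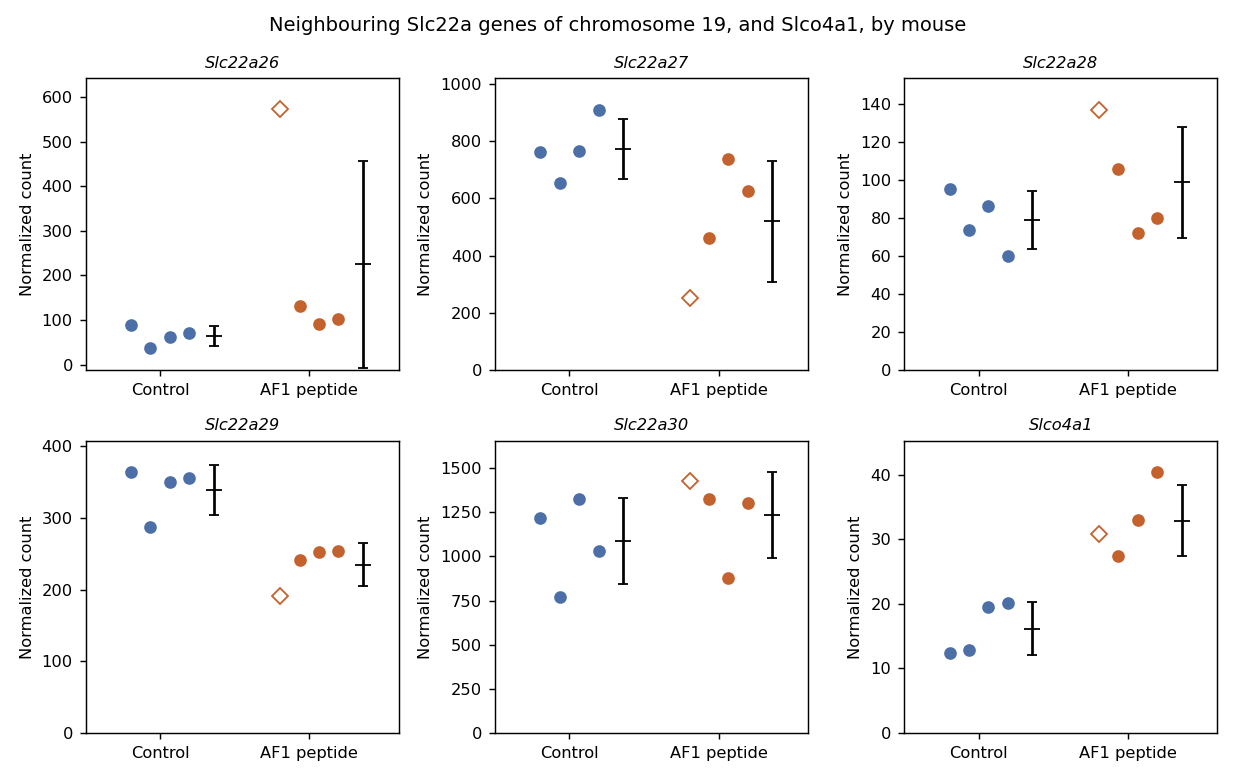
Normalized counts (linear axes) of Slc22a26, Slc22a27, Slc22a28, Slc22a29, Slc22a30 and Slco4a1 in the 4 Control mice (blue circles) and the 4 AF1 peptide mice (orange, with an open diamond for AF1 peptide replicate 1), and black bars for the mean ± SD. Slc22a29 is lower and Slco4a1 higher in every AF1 peptide mouse than in every Control mouse, and the Slc22a26 mean of the AF1 peptide mice is drawn up by 1 mouse at 573.

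Slco4a1, which encodes an organic anion transporting polypeptide known to carry thyroid hormones, rose 2.00-fold from a low level. Its normalized counts were 12.4, 12.8, 19.5 and 20.1 in the Control mice and 30.8, 27.4, 33.0 and 40.4 in the AF1 peptide mice. The groups did not overlap, and AF1 peptide replicate 1 lay among the other AF1 peptide mice. The means were 16.2 ± 4.17 and 32.9 ± 5.51 (SD, n = 4 each), with a log2 difference of 1.00 (SE 0.26, 95% interval 0.42 to 1.58, exact permutation p = 0.0286). The difference was 1.02 without AF1 peptide replicate 1, and the unadjusted limma p was under 0.05 in each of the 8 fits that leave out 1 mouse. Slco4a1 shared no 50-base word with another gene. Per kb of the longest coding transcript its mean level over the 8 mice was 7.91 normalized counts, beside 2393 for Slco1b2, a main OATP gene of the liver.

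Of the carriers known in hepatocytes, those described next were not called. Slc22a18, an orphan carrier that lies in an imprinted gene cluster, was 4889 ± 683 in the Control and 5770 ± 1020 in the AF1 peptide mice (SD, n = 4 each, log2 difference 0.23, 95% interval -0.10 to 0.57). Slc22a5, the carnitine transporter OCTN2, was 1103 ± 67.0 and 1217 ± 159 (log2 difference 0.13, 95% interval -0.11 to 0.38), and shares 26.3% of its 50-base words with other genes, mostly with its neighbour Slc22a21. Slc22a7, the organic anion transporter OAT2, was low at 47.1 ± 13.9 and 48.3 ± 25.2.

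Among the OATP genes, Slco1b2, which takes up bile acids and bilirubin, was 7632 ± 604 in the Control and 8194 ± 721 in the AF1 peptide mice (SD, n = 4 each, log2 difference 0.10, 95% interval -0.14 to 0.34). Slco2b1, a carrier of steroid sulfates, was 5575 ± 473.5 and 6042 ± 446 (log2 difference 0.12, 95% interval -0.11 to 0.35). Slco1a1, a gene known for a higher level in male than in female mouse liver, was low in both groups, at 44.0 ± 10.9 and 43.5 ± 19.8. Slco1a4, known to respond to the xenobiotic sensor PXR, had 2098, 2495, 1638 and 2473 normalized counts in the Control mice and 4332, 2170, 1817 and 1416 in the AF1 peptide mice. For this gene AF1 peptide replicate 1 was above all other mice and the other 3 AF1 peptide mice were within or below the Control range, so that the log2 difference was 0.05 with it and -0.27 without it, and neither passed the test. On the efflux side, Slc47a1 (MATE1) was 8040 ± 946 in the Control and 9191 ± 1086 in the AF1 peptide mice (log2 difference 0.19, 95% interval -0.09 to 0.48), while Slc47a2 was at or near 0 and was not tested.

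In counts per kb of the longest coding transcript, the mean over the 8 mice was 3434 for Slc22a18, 3265 for Slc47a1, 2393 for Slco1b2 and 1326 for Slco2b1, all abundant solute carriers. The levels of Slc22a18 and Slc47a1 overlapped between mice. Among ABC genes the highest levels per kb belonged to Abcd3 at 2355, Abcb4 at 2158, Abcg5 at 2145, Abcc6 at 1842 and Abcc3 at 1240. The range over the 8 mice was 2030 to 2682 for Abcd3 and 1422 to 2694 for Abcb4, so these neighbours in the order did not differ beyond the spread. The summed normalized counts of the solute carriers were 40774 to 44888 in the Control and 42474 to 46633 in the AF1 peptide mice. Those of the ABC genes were 68408 to 71497 and 67397 to 86237, with AF1 peptide replicate 1 at the top.

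**Figure D2:**
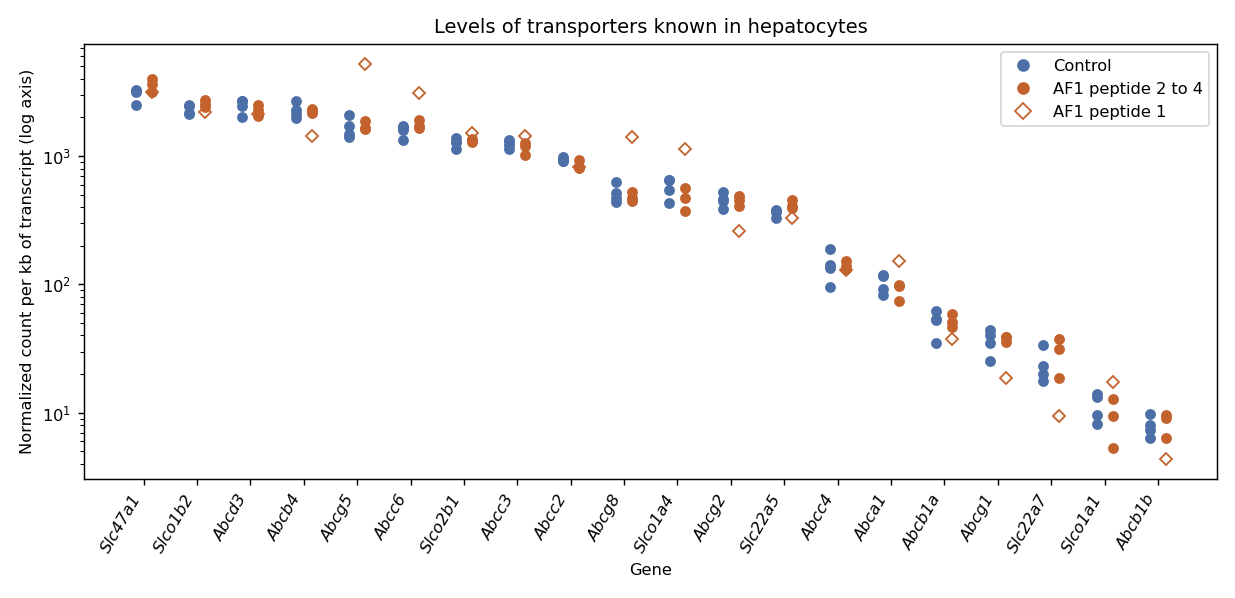
Normalized count per kb of the longest coding transcript (log axis) of transporters known in hepatocytes, with 1 point per mouse for Control (blue), AF1 peptide replicates 2 to 4 (orange) and AF1 peptide replicate 1 (open diamond), ordered by mean level. Levels run from Slc47a1 at 3265 down to Slco1a1 at 11.2 and Abcb1b at the end, and the points of both groups overlap for each gene.

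The ABC genes as a group stayed close to Control. Of the 40 tested, 18 had a log2 difference above 0 and 22 below 0, 37 were within 1.3-fold, and the median difference was -0.04. The 23 tested solute carriers had 14 above and 9 below 0, 18 within 1.3-fold and a median of 0.05, beside a median of -0.01 over all tested genes. The ABC gene with the largest difference, named here after its value was seen, was Abca14, with 36.3, 67.0, 76.7 and 110 normalized counts in the Control and 336, 60.3, 136 and 58.8 in the AF1 peptide mice. The groups overlapped and the log2 difference of 0.74 did not pass the test (exact permutation p = 0.4). The groups did not overlap for 3 members that were higher with AF1 peptide (Slc22a26, Slco4a1 and Abcf1) and 2 that were lower (Slc22a29 and Abca5), beside 2.05% of all tested genes higher and 1.85% lower (3.9% in either direction).

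**Figure D3:**
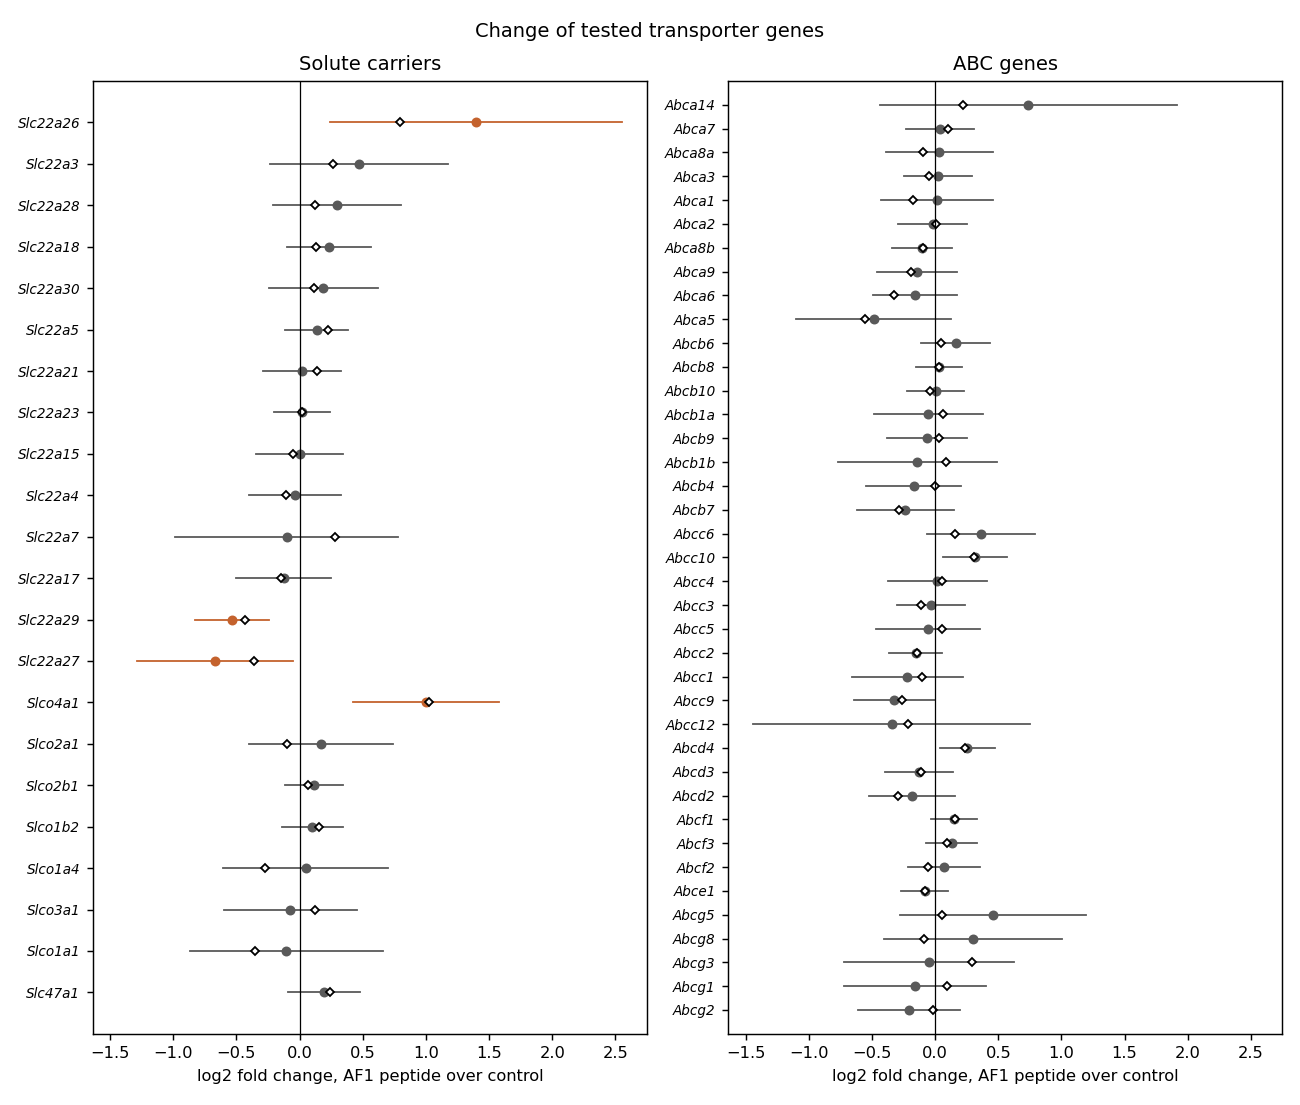
Log2 difference between AF1 peptide and Control for the tested members that are reported here, by family, as a dot with its 95% limma interval (orange where called), and as an open diamond without AF1 peptide replicate 1. The intervals of the 4 called solute carriers and of Abcc10, Abcd4 and Abcc9 leave out 0.

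The 3 ABC genes with the smallest p values differed by less than 1.3-fold and were not called. Abcc10, which encodes the multidrug resistance protein MRP7, had 1786, 1797, 2076.5 and 1745 normalized counts in the Control mice and 2350, 2159, 2746 and 2003 in the AF1 peptide mice. Only the lowest AF1 peptide mouse lay within the Control range. The log2 difference was 0.32 (SE 0.11, 95% interval 0.06 to 0.57, exact permutation p = 0.0571). It was 0.29 without Control replicate 4 and 0.23 without AF1 peptide replicate 3, with an unadjusted limma p above 0.05 in both fits. Abcc10 was called higher, at 0.38 and just past the 1.3-fold limit, without AF1 peptide replicate 4. Abcd4, which takes part in the export of cobalamin from lysosomes, had 407, 420.5, 460.5 and 428 in the Control and 528, 541, 524 and 458 in the AF1 peptide mice. Again 1 AF1 peptide mouse lay within the Control range (log2 difference 0.26, SE 0.10, 95% interval 0.04 to 0.47, exact permutation p = 0.0571). It was 0.23 without Control replicate 1, 0.25 without Control replicate 2 and 0.23 without AF1 peptide replicate 2, each with an unadjusted limma p above 0.05. Abcc9, the sulfonylurea receptor SUR2 of potassium channels, had 533, 495, 471 and 500 in the Control and 350, 358, 545 and 372 in the AF1 peptide mice. The other 3 AF1 peptide mice were below every Control mouse, and AF1 peptide replicate 3 was above them all (log2 difference -0.32, SE 0.14). Of the 8 fits that leave out 1 mouse, only the fit without AF1 peptide replicate 3 kept an unadjusted limma p under 0.05, with a log2 difference of -0.47, and there Abcc9 was called lower.

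Of the export pumps for drugs and conjugates, Abcc2 (MRP2), which excretes bilirubin glucuronides into bile, was 7560 ± 242 in the Control and 6795 ± 448.5 in the AF1 peptide mice (SD, n = 4 each, log2 difference -0.16, 95% interval -0.36 to 0.05). Abcc3 and Abcc4, which export bile acids and conjugates back into blood, had log2 differences of -0.03 (95% interval -0.30 to 0.23) and 0.02 (95% interval -0.37 to 0.41). Abcb1a and Abcb1b, the P-glycoprotein genes, had log2 differences of -0.05 and -0.14 and share 17.6% and 11.6% of their 50-base words with other genes, mostly with each other. Abcb6, a porphyrin transporter of mitochondria and other membranes, was 1823 ± 122 and 2057 ± 360 (log2 difference 0.16), and 50.01% of its 50-base words are also in Gm29253, which overlaps it on the same strand. None of these passed the test.

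Of the lipid transporters, Abca1, which loads cholesterol onto apolipoprotein A-I, was 1049 ± 176 in the Control and 1084 ± 333 in the AF1 peptide mice (SD, n = 4 each, log2 difference 0.02, 95% interval -0.43 to 0.46). Abcg1, which passes cholesterol to HDL, had a log2 difference of -0.16 (95% interval -0.73 to 0.41). Abca2, a sterol-handling protein of lysosomes, had one of -0.02 (95% interval -0.30 to 0.26). Abca5, a related protein of lysosomes, had 51.9, 65.0, 53.0 and 61.1 normalized counts in the Control and 47.6, 21.9, 51.1 and 51.4 in the AF1 peptide mice. The groups did not overlap, but they were separated by little and AF1 peptide replicate 2 was far below the rest (log2 difference -0.49, 95% interval -1.10 to 0.13, exact permutation p = 0.0286). Its neighbour Abca6 had 1652, 1814, 1566 and 1826 in the Control and 2137, 1337, 1329 and 1442 in the AF1 peptide mice. The 3 AF1 peptide mice other than replicate 1 were below all Control mice, and the log2 difference was -0.16 over all mice. Without AF1 peptide replicate 1 it was -0.32, under 1.3-fold but with an unadjusted limma p under 0.05. No other fit that leaves out 1 mouse gave Abca6 such a p. Abcd3, which carries fatty acids into peroxisomes, was 8602 ± 1064 and 7833 ± 674 (log2 difference -0.13, 95% interval -0.40 to 0.14).

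The ribosome-bound members had the lowest spread among Control mice of the families examined. Abcf1 had 1716, 1619, 1778 and 1579 normalized counts in the Control and 1792, 1881, 1860 and 1860 in the AF1 peptide mice. Every AF1 peptide mouse was above every Control mouse, by a small step (log2 difference 0.15, 95% interval -0.04 to 0.33, exact permutation p = 0.0286). Abce1, which recycles ribosomes, had a log2 difference of -0.08 (95% interval -0.27 to 0.10). The median SD of log2 values among the Control mice was 0.07 for the 4 Abce and Abcf genes, 0.18 for all tested ABC genes, 0.27 for the solute carriers and 0.19 for all tested genes.

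Abcg5 and Abcg8 encode both subunits of the pump that excretes cholesterol into bile. With the Abcg8 window chr17:84682871-84683170 on GRCm38.p6, the genes start 110 bases apart on opposite strands, and their windows share 209 bases. RefSeq also gives an Abcg8 window at chr17:84676052-84676351, which was not used for these values. The Abcg5 window is shown because it holds the region between these starts, with capitals on a match to TATAAA, searched on both strands and found in 13.6% of RefSeq promoters.
Abcg5 (chr17:84682962-84683261 on GRCm38.p6, minus strand): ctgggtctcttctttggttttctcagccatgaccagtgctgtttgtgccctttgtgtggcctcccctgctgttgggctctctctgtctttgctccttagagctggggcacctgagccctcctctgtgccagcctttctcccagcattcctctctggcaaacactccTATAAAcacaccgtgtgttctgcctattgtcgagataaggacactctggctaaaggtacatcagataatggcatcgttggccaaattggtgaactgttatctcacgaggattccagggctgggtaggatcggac
Abcg5 had 4920, 3517, 4061 and 3312 normalized counts in the Control mice and 12327, 4435, 3854 and 3917 in the AF1 peptide mice. Abcg8 had 2313, 1619, 1897 and 1741 in the Control and 5177, 1932, 1740 and 1634 in the AF1 peptide mice. AF1 peptide replicate 1 was 3.03 and 2.93 times the mean of the other AF1 peptide mice for these genes, and the other 3 lay within the Control range. The log2 differences were 0.46 and 0.30 over all mice and 0.06 and -0.09 without AF1 peptide replicate 1, and none passed the test (exact permutation p = 0.371 and 0.657 over all mice).

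**Figure D4:**
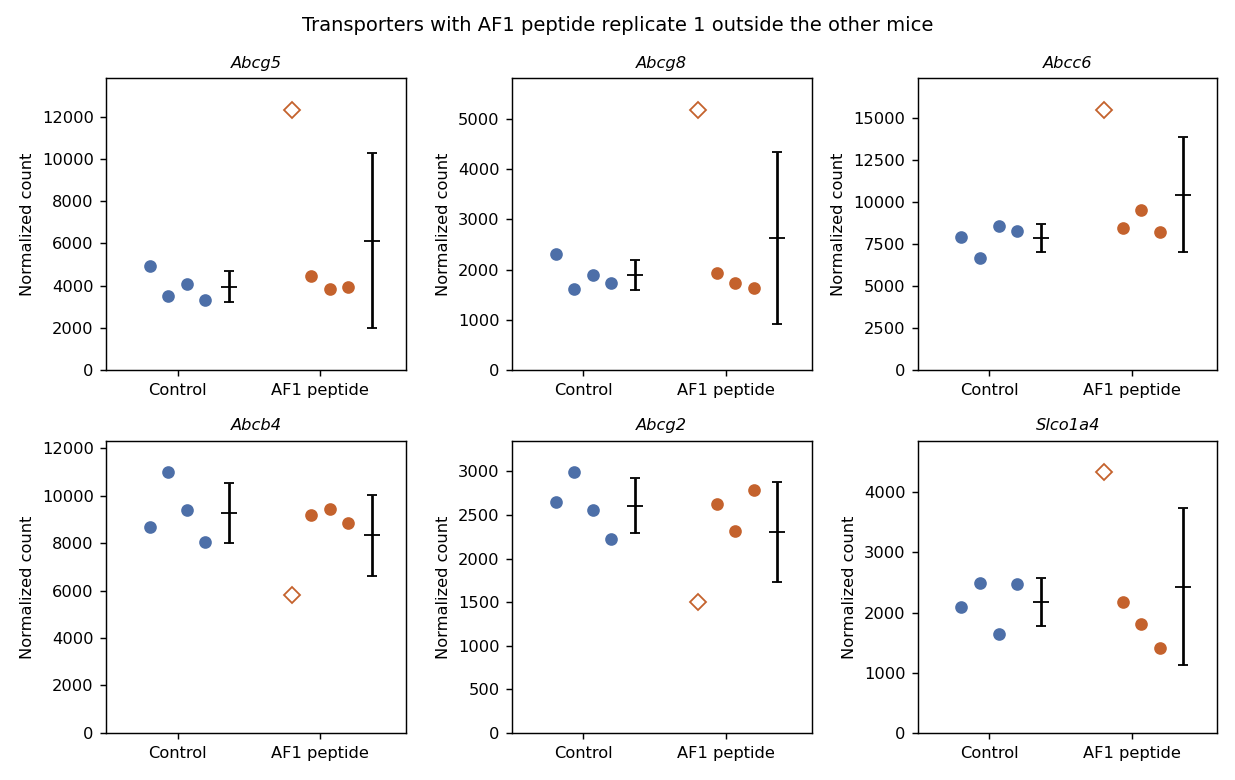
Normalized counts (linear axes from 0) of Abcg5, Abcg8, Abcc6, Abcb4, Abcg2 and Slco1a4 in the 4 Control mice (blue) and the 4 AF1 peptide mice (orange, with an open diamond for AF1 peptide replicate 1), with black bars for the mean ± SD. The open diamond is above all other mice for Abcg5, Abcg8, Abcc6 and Slco1a4 and below them for Abcb4 and Abcg2.

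For other pumps that hepatocytes use, the place of AF1 peptide replicate 1 varied. It was within the range of the other 7 mice for Abcc2, Abcc4 and Abcb1a, above it for Abcc3 and Abcc6, and below it for Abcb4, Abcb1b and Abcg2. Abcb4, the phospholipid floppase that supplies phosphatidylcholine to bile, had 8669, 10988, 9386 and 8036 normalized counts in the Control and 5799, 9207, 9456 and 8868 in the AF1 peptide mice. Abcg2, the breast cancer resistance protein that exports urate and drugs, had 2650, 2988, 2559 and 2219 in the Control and 1499, 2621, 2314 and 2783 in the AF1 peptide mice. The lowest mouse for both was AF1 peptide replicate 1, and without it both log2 differences were -0.01. Abcc6, which promotes the release of ATP from hepatocytes, had 7937, 6683, 8587 and 8299 in the Control and 15517, 8491, 9558 and 8208 in the AF1 peptide mice, with a log2 difference of 0.36 over all mice (exact permutation p = 0.143) and 0.16 without AF1 peptide replicate 1. All 5 tested Abcg genes had AF1 peptide replicate 1 outside the other 7 mice, and none of the 4 Abcd genes had, beside the 49.3% of all tested genes.

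Regulators and partners of these transporters were taken from lists of related genes. Of 55 tested genes, 1 was called higher and 4 lower, beside the 3.69% called among all genes. Among 16 nuclear receptors and other sensors, Esr1, the gene of the receptor from which AF1 peptide is derived, rose from 222 ± 32.0 to 340 ± 131 (SD, n = 4 each, log2 difference 0.55, exact permutation p = 0.0857) with overlapping groups. Without AF1 peptide replicate 1 its log2 difference was 0.32, and an unadjusted limma p under 0.05 was found in 3 of the 8 fits that leave out 1 mouse. Nr1i2, the gene of the xenobiotic sensor PXR, was 3781 ± 452 and 4680 ± 334 with no overlap, and its log2 difference of 0.31 (exact permutation p = 0.0286) was under 1.3-fold. Nr1h3, the gene of the sterol sensor LXRα, which is known to regulate Abca1, Abcg1, Abcg5 and Abcg8, was 2398 ± 78.7 and 2723 ± 397 with no overlap (log2 difference 0.17, 95% interval -0.07 to 0.41, exact permutation p = 0.0286) and was not called. Without AF1 peptide replicate 1, which had 3316.5 normalized counts, the log2 difference of Nr1h3 was 0.07. Nr1h3 is named here after its values were seen, as is Nr1i2. Of 21 tested carriers of other families, Slc16a1, the monocarboxylate transporter MCT1, fell from 1019 ± 110 to 713 ± 209 (log2 difference -0.56, exact permutation p = 0.0571). Without AF1 peptide replicate 1 this was -0.34, under 1.3-fold. Slc17a1, a phosphate and urate carrier, fell from 343 ± 32.7 to 260 ± 29.2 with no overlap (log2 difference -0.40, exact permutation p = 0.0286).

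Among 16 tested scaffolds, flippases and partner subunits, 15 had a log2 difference below 0 and 2 were called, beside 8285 of 15989 genes below 0 and 3.69% called over the table. Whether the list as a whole differed was not tested. Pdzk1, a scaffold that binds the tails of many organic ion carriers, fell from 179 ± 37.5 to 117 ± 20.8 (SD, n = 4 each, log2 difference -0.60, exact permutation p = 0.0857) with overlapping groups. Tmem30b, a partner subunit of phospholipid flippases, fell from 252 ± 37.1 to 163 ± 28.2 with no overlap (log2 difference -0.63, exact permutation p = 0.0286). Its paralog Tmem30a, named here after its values were seen, had a log2 difference of -0.28 with no overlap (exact permutation p = 0.0286, under 1.3-fold). The unadjusted limma p of Tmem30a was under 0.05 in 2 of the 8 fits that leave out 1 mouse. The ABC genes that carry other symbols, Tap1 and Tap2, were not called.

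Markers of hepatocytes and of the other cell types a liver sample can hold were measured beside these results. Of 49 tested markers of 9 cell types, 8 of them of hepatocytes, 2 were called, beside the 3.69% called over all genes. Both were lower with AF1 peptide: Adgre1, a macrophage marker (log2 difference -0.66, exact permutation p = 0.114), and Dcn, a stellate cell marker (log2 difference -0.42, exact permutation p = 0.0857). Without AF1 peptide replicate 1 Adgre1 was at -0.45 and was not called. Fewer cells of a type and less RNA per cell cannot be told apart in these whole-tissue samples. The 8 Kupffer cell and macrophage markers summed to 5536 to 6968 normalized counts in the Control mice, 2545 in AF1 peptide replicate 1 and 6288.5 to 6639 in the other AF1 peptide mice. The 8 endothelial markers summed to 5532 to 6231, 4845 and 5253 to 6233.5, and the 8 stellate cell markers to 4793 to 6946.5, 3721.5 and 4276 to 7824. Biliary markers summed to 1199 to 1810 in the Control mice, 815 in AF1 peptide replicate 1 and 1251 to 2308 in the other AF1 peptide mice. Red blood cell markers ranged from 34147 to 123380 in the Control mice and were 27111 in AF1 peptide replicate 1 and 49135 to 51923 in the others. Lymphocyte and neutrophil markers were at most 185 in sum in any mouse. AF1 peptide replicate 1 had the lowest sum for each of these types. The sums follow their most abundant genes, such as Spp1 among the biliary markers, at 667 in that mouse. Single markers did not all move alike, since Stab2 and Cd3e were highest of all mice in AF1 peptide replicate 1. Of the 4 genes listed for fat tissue, Adipoq, Plin1 and Lep had no row among the values, and Cidea had 1. Cidea was at 38.3 in AF1 peptide replicate 1, 1698 to 2204 in the other AF1 peptide mice and 1437 to 3436 in the Control mice. With this 1 gene the presence of fat tissue cannot be judged. Of the pancreas markers, 1 of 5 had values (Cela1, at 181 to 250 in all mice), and of the kidney markers 1 of 4 (Lrp2, at most 15.6). The part of these values in the transporter results was not tested.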

How the data were processed

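Liver RNA of 8 db/db mice was sequenced from stranded mRNA libraries, 4 Control and 4 AF1 peptide, grouped by the sample labels. According to the study's methods and the submitters' processing notes, the authors trimmed the reads with Trim Galore 0.6.7, aligned them with HISAT2 to mm39, used SAMtools 1.17 for sorting and GenomicAlignments for read numbers per gene. The annotation and the use of strand in counting are not given in the sources used here. The deposited signal per gene is a read count divided by 1 size factor per mouse (100% of 172256 values came out as whole reads within 0.02). No columns were left out.

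The log2(normalized count + 1) was compared with limma 3.58.1 in R 4.3.3, with a variance trend over intensity, for the 15989 genes with a mean of at least 10. Fold changes are on this scale, which understates low genes. Genes were called at an unadjusted p under 0.05 with over 1.3-fold, and p values were adjusted by Benjamini-Hochberg over all tested genes. Single genes were also compared by a two-sided exact permutation test of the 70 splits into 4 and 4 mice, added after the data were seen. The recovered reads were also tested with edgeR 4.0.16 and DESeq2 1.42.0. Other alternatives were pseudocounts of 0.5 and 5, no filter, at least 10 in every mouse, TMM factors, equal totals, no trend, each gene's own variance, a replicate block, no fold threshold and each mouse left out. No replicates were duplicates, with a chi-square per degree of freedom of at least 14.6. The recovered depth was 23031880 to 45117528 reads, and precision is limited by the spread between 4 mice a group. The members, lists and naming rule were chosen with earlier results of these data known.

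Values are given for members that were called or did not overlap between groups, the 2 most abundant per kb in each family, 21 transporters known in hepatocytes, and the 3 smallest p values of the solute carriers and of the ABC genes. The values of 2 members that count in the totals are not reported here. Slc22a28 and Slc22a30 are named as neighbours, and Slc22a3, Abca14, Nr1i2, Nr1h3 and Tmem30a after their values were seen. Shared 50-base words were counted in GENCODE M21 transcripts. Promoters came from RefSeq (GRCm38.p6), which matched 58 of the 73 members, and gene order from the same assembly. Since the table used mm39, no coordinates of genes are given.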

Additional observations from a re-analysis of the deposited data

Results flagged for a closer look

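In 74 sets of 4 mice (37 transporters, each in both groups, on the log2 scale), 11 had 1 mouse with a gap to its nearest neighbour that was above Dixon's 95% critical value for a set of 4, as a share of their range. Chance gives about 1 in 20 such sets where the sets are independent and normally distributed. Here all sets come from the same mice, and some genes were named for separated groups or small p values. The number flagged can therefore not be compared with that rate. In 5 of the 11, the mouse was AF1 peptide replicate 1, which was highest for Abcg5 (12327 normalized counts, a gap of 0.879 of the range), Abcg8 (5177, gap 0.854) and Abcb6 (2592, gap 0.833) and lowest for Abcb4 (5799, gap 0.869) and Abcg1 (109, gap 0.873). Among the other AF1 peptide mice, replicate 2 was lowest for Abca5 (21.9, gap 0.908) and replicate 3 was highest for Abcc9 (545, gap 0.863). Among the Control mice, replicate 3 was highest for Abcc10 (2076.5, gap 0.831) and Slc47a2 (5.40, gap 1.0, with the other 3 at 0), and replicate 2 was lowest for Slc22a29 (288, gap 0.842) and Slc47a1 (6641, gap 0.836). The cause was not tested.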

How the results depend on the processing

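Of the alternatives, pseudocounts of 0.5 and 5, at least 10 in every mouse and TMM factors left all counts of calls within 1.5 times. With no filter, 2 solute carriers were called higher and 3 lower, and over all 21532 genes 435 were called higher and 459 lower. The 2 solute carriers called higher became 1 under DESeq2 (which gave no p for Slc22a26) and 1 with each gene's own variance, where Slc22a26 was lost. The 2 called lower became 1 under edgeR, 1 without the trend and 1 with own variance, where Slc22a27 was lost each time. The 0 ABC genes called became 1 higher under DESeq2, 1 lower with equal totals, and 2 higher and 1 lower with no fold threshold. The 5 related genes called became 3 with own variance, and the 2 markers became 1 without the trend and 0 with own variance. Leaving out 1 mouse gave 1 to 3 solute carriers higher, 1 to 2 lower, 0 to 1 ABC genes higher (Abcc10 without AF1 peptide replicate 4), 0 to 1 lower (Abcc9 without AF1 peptide replicate 3), 3 to 7 related genes and 0 to 3 markers. No difference of a named gene turned direction with a call. Equal totals moved the median of all genes from -0.01 to -0.10 and the calls over all genes from 286 higher and 304 lower to 122 and 602.

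The labels number the mice within each group and do not say that equal numbers form pairs. Same-numbered mice had correlations of deviations of 0.235, 0.0238, 0.217 and -0.064. Between mice with unlike numbers they ranged from -0.272 to 0.137. The values for replicates 1 and 3 were above this range and the others within it, so whether the numbers pair mice is not settled. With the number as a replicate block, solute carriers called higher were 3, with Slc22a3 joining (log2 difference 0.47 in both fits, with an unadjusted limma p under 0.05 in the blocked fit alone), lower 2, ABC genes 0, related genes 6 and markers 2. The cause of these shifts was not tested. With 4 mice a group no gene passed adjustment in limma.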
